A study of Homo sapiens with 4 samples.

Results

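The ligands, receptors, antagonists, SMADs and ID targets of transforming growth factor-beta (TGF-beta), activin and bone morphogenetic protein (BMP) signaling were examined in day 14 cardiomyocytes of 2 origins. The members are 59 named genes among the 23615 gene symbols of the FPKM table, and were picked by pathway membership. They comprise 25 ligands, 12 receptors, 7 antagonists, 2 extracellular processing proteins, 9 genes for SMADs and their ligase, and 4 ID genes. Of these, 43 had a mean of at least 1 FPKM (fragments normalized to transcript length and to the mapped fragments of the library) and were tested. The other 16 stayed below that level.

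All 4 libraries derive from RUES2, an established line of human embryonic stem cells. Its induction used activin A at 100 ng/ml together with BMP4 at 5 ng/ml. In 2 libraries, cardiomyocytes came from cardiac progenitor cells (CPC). The study's cardiac protocol included XAV, a tankyrase inhibitor that blocks Wnt/β-catenin signaling, at 1 µM in part of its experiments, and does not say whether these libraries were among them. In the other 2, cardiomyocytes came from endothelial cells given 2 µM XAV (ECsXAV), after a culture medium with VEGF that also held 10 ng/ml BMP4. Both groups had therefore received exogenous activin A and BMP4, and the ECsXAV cells had received BMP4 for longer. Both groups were unsorted cultures of a single line, with poly-A RNA sequenced in 2 biological replicates each. The labels do not say whether the groups were grown in the same experiment, so a difference between experiments, if any, cannot be told apart from the group.

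In this pathway, a dimeric ligand joins type II and type I receptor kinases, which phosphorylate receptor SMADs. TGF-beta, activin and nodal ligands act through SMAD2 and SMAD3, and BMPs through SMAD1, SMAD5 and SMAD9, while SMAD4 is the shared partner. SMAD6 and SMAD7 are inhibitory, and secreted or membrane antagonists limit ligand access. The ID genes encode inhibitors of basic helix-loop-helix factors and are classical BMP targets. BMP signals help specify cardiac mesoderm, and TGF-beta2 is known for its part in the cardiac cushions.

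The promoters of 4 members with higher levels in both CPC libraries are shown to place known SMAD motifs in them, as a description only. They were chosen after their values were seen, and in the test below ID1 and BAMBI passed while ID3 and SMAD6 did not. Each is the 250 bases before the gene's start, 5′ to 3′ on the gene's strand, from RefSeq on GRCh38.p14. Windows were matched for 50 of the 59 members. Capitals mark matches on either strand to the palindromic SMAD-binding element GTCTAGAC, the GC-rich SMAD motif GGCGCC, the SMAD box CAGAC or the core promoter motif TATAAA. The ID1 window is chr20:31605039-31605288 on the plus strand, ID3 is chr1:23559502-23559751 on the minus strand, SMAD6 is chr15:66701986-66702235 on the plus strand and BAMBI is chr10:28677271-28677520 on the plus strand.
ID1: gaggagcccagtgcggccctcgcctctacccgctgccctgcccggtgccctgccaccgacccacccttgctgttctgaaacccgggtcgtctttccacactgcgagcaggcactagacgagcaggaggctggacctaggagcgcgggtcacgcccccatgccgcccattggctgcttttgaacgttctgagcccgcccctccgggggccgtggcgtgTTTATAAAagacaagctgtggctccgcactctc
ID3: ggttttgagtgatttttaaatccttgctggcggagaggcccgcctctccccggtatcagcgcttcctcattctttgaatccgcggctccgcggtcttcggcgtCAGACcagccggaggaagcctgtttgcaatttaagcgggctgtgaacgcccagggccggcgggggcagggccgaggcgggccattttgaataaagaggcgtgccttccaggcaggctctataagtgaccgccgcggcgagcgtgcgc
SMAD6: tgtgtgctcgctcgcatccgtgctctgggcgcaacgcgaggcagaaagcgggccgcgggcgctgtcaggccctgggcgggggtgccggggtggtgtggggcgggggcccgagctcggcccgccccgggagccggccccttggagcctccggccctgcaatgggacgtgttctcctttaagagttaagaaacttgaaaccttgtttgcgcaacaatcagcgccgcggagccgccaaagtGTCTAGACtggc
BAMBI: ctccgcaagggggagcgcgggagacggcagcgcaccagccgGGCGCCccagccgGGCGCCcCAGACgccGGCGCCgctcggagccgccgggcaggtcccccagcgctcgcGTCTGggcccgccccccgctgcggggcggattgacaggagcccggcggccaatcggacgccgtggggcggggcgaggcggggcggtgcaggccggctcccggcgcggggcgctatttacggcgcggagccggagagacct
SMAD6 held GTCTAGAC 4 bases before the start, a sequence in 0.178% of 34788 windows of this length and in 1 of the 50 matched members. BAMBI held 3 copies of GGCGCC and 2 of CAGAC, and 1 of these CAGAC copies lay between GGCGCC copies without overlapping them. GGCGCC was in 16.4% of all windows and in 17 of the 50 members, and CAGAC in 38.0% and 21. ID3 held 1 CAGAC. ID1 held no GTCTAGAC, GGCGCC or CAGAC, and held TATAAA on both strands, overlapping each other. TATAAA was in 10.8% of all windows and in 11 of the 50 members. The percentages count windows, while a member was counted if any of its windows held the motif. Some members had several windows, with 8 for TGFBR1, so shares of members and of windows cannot be compared.

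Among the 59 members, ID1, BAMBI and SMAD2 were higher in CPC cardiomyocytes, and GDF6, LEFTY2 and BMP1 were higher in ECsXAV cardiomyocytes. Log2 fold changes below are on the log2(FPKM + 1) scale as CPC minus ECsXAV, which understates changes of low genes, and adjusted p-values are from limma with Benjamini-Hochberg adjustment over 12398 genes. These 6 of the 43 had an adjusted p under 0.05, beside 2.89% of all tested genes. The 3 higher in CPC stood beside 0.928% of all genes called in that direction, and the 3 higher in ECsXAV beside 1.96%. GDF6 was the 1 member that also changed over 2-fold, the study's criterion, beside 2.15% of all genes. For members, passing the test means an adjusted p under 0.05, while the full criterion also asks for a change over 2-fold. At an unadjusted p under 0.05, 23 members passed, beside 18.2% of all genes. Of these, 16 were higher in CPC, beside 7.86%, and 7 in ECsXAV, beside 10.4%. The libraries of the groups did not overlap for 26 members, beside 49.8% of all genes. They were higher in CPC for 19, beside 24.4%, and higher in ECsXAV for 7, beside 25.4%. The median log2 fold change was 0.21 over the 43 members and -0.0045 over all tested genes. The 95% interval lay within a 2-fold change either way for 26 of the 43, a share that was not computed over all genes.

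MicroRNA and small nucleolar RNA genes are short, and FPKM suit them poorly. With these 312 genes left out of the fit, 17 members had an adjusted p under 0.05, beside 8.01% of all genes. Of these, 11 were higher in CPC, beside 2.89%, and 6 in ECsXAV, beside 5.12%. The full criterion was then met by GDF6, ID4 and TGFB2, beside 2.8% of all genes. With any 1 library left out, the 5 members other than GDF6 had adjusted p of 0.102 to 0.339. GDF6 had adjusted p of 0.105 and 0.0907 without CPC replicate 1 and CPC replicate 2. The smallest two-sided p of an exact permutation test on 2 against 2 libraries is 0.333. Each p above therefore rests on the limma model, which combines a gene's own spread with that shared across genes.

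Depth was 50.1% to 86.9% of that of ECsXAV replicate 1 in the other 3 libraries, ECsXAV replicate 2 being the lowest. All 10 cardiomyocyte markers were above 1 FPKM in every library, with sums of 14805.5 and 15435.6 FPKM in ECsXAV and 13049.4 and 13676.2 FPKM in CPC. MYL7 made up most of these sums, and the markers differed in direction, with MYH6 past the full criterion as higher in CPC and MYH7 and MYBPC3 as higher in ECsXAV. Other cell type markers differed between the groups. The summed fibroblast markers were at 192 and 227 FPKM in ECsXAV and 105 and 107 FPKM in CPC. Of these 10 markers, 7 were higher in both ECsXAV libraries and POSTN in both CPC libraries, while PDGFRA overlapped and FAP was at 0. Smooth muscle markers summed to 267 and 297 FPKM in ECsXAV and 141 and 168 FPKM in CPC, through TAGLN and CNN1, while ACTA2 and SMTN overlapped and MYH11 was higher in both CPC libraries. Hepatic and endodermal markers summed to 34.1 and 42.2 FPKM against 16.6 and 18.7 FPKM, and blood markers, with PTPRC at 0, to 3.14 and 5.08 FPKM against 0.273 and 0.552 FPKM. Skeletal and paraxial markers, with MYF5 and PAX7 at 0, summed to 0.916 and 1.56 FPKM in ECsXAV and 5.89 and 7.54 FPKM in CPC. UNCX made that difference at 0.0972 and 0.129 FPKM in ECsXAV and 6.27 and 4.71 FPKM in CPC, and no other marker of the list separated the groups. The endothelial sums, mostly KDR, overlapped at 12.9 and 13.7 FPKM in ECsXAV and 11.6 and 15.0 FPKM in CPC, but CDH5, TEK, ESAM and VWF were higher in both ECsXAV libraries and EMCN in both CPC libraries. Epicardial markers, mostly TBX18, summed to 1.65 and 1.78 FPKM in ECsXAV and 0.677 and 0.845 FPKM in CPC. WT1 had the same order as TBX18, while ALDH1A2 was higher in both CPC libraries and UPK3B overlapped. Pluripotency markers, with NANOG at 0, summed to 0.199 to 0.411 FPKM and overlapped. The part of these lists in the results was not tested, and in bulk RNA fewer cells of a type and less RNA per cell cannot be told apart.

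**Figure D1:**
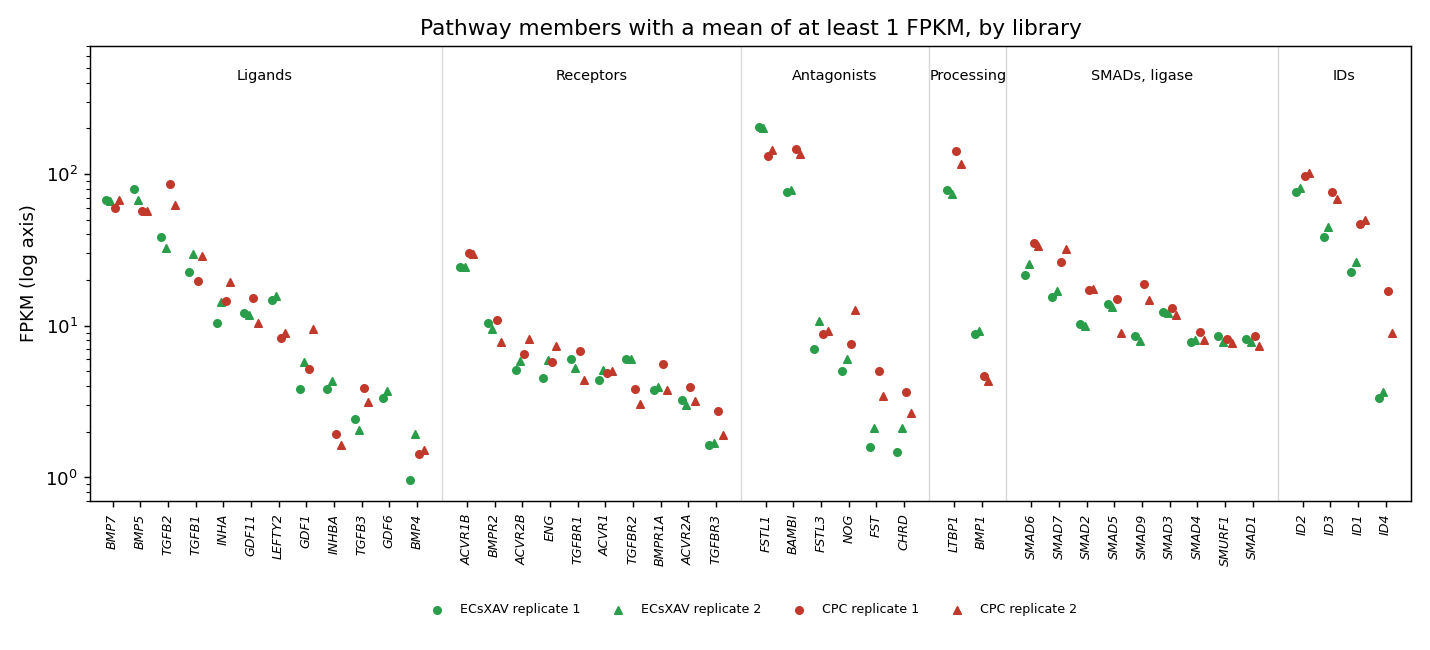
FPKM (log axis) of the 43 tested members in each library, grouped by role and ordered by mean within a role; green is ECsXAV, red is CPC, circles are replicate 1 and triangles replicate 2. All 4 ID genes, BAMBI and LTBP1 lie higher in both CPC libraries, while GDF6, at 0.520 and 0.453 FPKM, lies below the axis in CPC.

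Among ligands, 12 of 25 were tested and GDF6, a BMP family ligand known from joint and skull development, changed most. It had 3.34 and 3.71 FPKM in ECsXAV and 0.520 and 0.453 FPKM in CPC. Both ECsXAV libraries were therefore several times higher than both CPC libraries. The log2 fold change was -1.61 (standard error 0.14, adjusted p = 0.0179), and -2.63 with a pseudocount of 0.1. The gene lies on chromosome 8. Without CPC replicate 1 or CPC replicate 2 its adjusted p was 0.105 or 0.0907, and without the filter on low FPKM it was 0.0570.

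LEFTY2, a secreted inhibitor of nodal signaling, had 14.9 and 15.8 FPKM in ECsXAV and 8.37 and 8.96 FPKM in CPC. All ECsXAV values were above all CPC values, and the log2 fold change was -0.76 (standard error 0.11, adjusted p = 0.0442). The adjusted p was 0.0551 under quantile normalization, 0.0558 under the replicate block and 0.0788 without the filter on low FPKM. LEFTY2 lies on chromosome 1 from 226124298 to 226129083 (GRCh37). INHBA, which encodes the subunit of activin A, had 3.85 and 4.29 FPKM in ECsXAV against 1.92 and 1.64 FPKM in CPC. Its libraries did not overlap, and its change of -0.87 on the log2 scale (standard error 0.14, adjusted p = 0.0534) passed with short RNA genes left out (adjusted p = 0.0101), with a pseudocount of 0.1 (adjusted p = 0.0451) and with no trend (adjusted p = 0.0449). INHBA passed in no further setting. Expression of INHA, the inhibin alpha subunit, was 10.5 and 14.4 FPKM in ECsXAV and 14.7 and 19.3 FPKM in CPC (log2 fold change 0.42, adjusted p = 0.377). INHA overlaps OBSL1 on the opposite strand, so its FPKM are uncertain.

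None of the 3 TGF-beta isoform genes had an adjusted p under 0.05, and no difference between them was tested. TGFB2 (chromosome 1, 218518678 to 218617961, GRCh37) had 38.3 and 32.7 FPKM in ECsXAV and 85.8 and 63.0 FPKM in CPC. Both CPC libraries were above both ECsXAV libraries, with a change of 1.03 on the log2 scale (standard error 0.19, adjusted p = 0.0699, or 0.00756 without short RNA genes). TGFB3 had 2.43 and 2.06 FPKM in ECsXAV and 3.87 and 3.13 FPKM in CPC (log2 fold change 0.47, standard error 0.15, adjusted p = 0.204). TGFB1 overlapped between the groups at 22.7 and 29.5 FPKM in ECsXAV and 19.9 and 29.0 FPKM in CPC. TGFB2 made up 55.6% ± 6.76 of the summed FPKM of the 3 genes in ECsXAV and 72.3% ± 8.55 in CPC (SD, n = 2). No test was made of that share.

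BMP7 and BMP5, a related pair of BMP ligands, had the highest means of the member ligands over all 4 libraries, and neither passed the test. In CPC the mean of TGFB2 was higher than either. BMP2, which is no member and is described below, had a higher CPC mean still, at 110 FPKM. BMP7 had 67.8 and 66.8 FPKM in ECsXAV and 60.1 and 67.9 FPKM in CPC, and its groups overlapped. Its log2 fold change of -0.07 had a 95% interval of -0.37 to 0.23. BMP5 had 79.6 and 67.0 FPKM in ECsXAV and 56.9 and 57.0 FPKM in CPC (log2 fold change -0.35, standard error 0.13, adjusted p = 0.246). BMP4, the factor also added to the cultures, was low at 0.966 and 1.94 FPKM in ECsXAV and 1.43 and 1.52 FPKM in CPC, and its groups overlapped. GDF11, related to myostatin, overlapped at 10.5 to 15.2 FPKM. GDF1 had 3.82 to 9.59 FPKM and also overlapped, but shares its locus and strand with CERS1, so the split between these genes is uncertain.

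The other 13 ligands reached at most 0.686 FPKM in any library and were not tested. BMP10, a ligand of the developing heart, was the highest of these at 0.686 and 0.522 FPKM in ECsXAV and 0.226 and 0.246 FPKM in CPC. NODAL had 0.120 and 0.239 FPKM in ECsXAV and 0.497 and 0.180 FPKM in CPC, and LEFTY1 had 0.444 and 0.506 FPKM against 0.256 and 0.0398 FPKM. BMP6 was at 0.145 and 0.158 FPKM in ECsXAV and listed at 0 in both CPC libraries. BMP3, BMP8A, BMP8B, GDF3, GDF5, GDF7, GDF10, INHBB and INHBE stayed between 0 and 0.659 FPKM, at depths that allow no comparison.

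Of 12 receptors, 10 were tested and none had an adjusted p under 0.05, beside 2.89% of all genes. At an unadjusted p under 0.05, 2 passed, beside 18.2% of all genes. Counts this close to those shares are no result about the receptors. TGFBR2, the type II receptor for TGF-beta, at 30648093 to 30735634 of chromosome 3 (GRCh37), had 6.09 and 6.01 FPKM in ECsXAV and 3.81 and 3.06 FPKM in CPC. Both ECsXAV libraries were above both CPC libraries, with a change of -0.67 on the log2 scale (standard error 0.14, adjusted p = 0.0856, or 0.0295 without short RNA genes). Its ligand gene TGFB2 had the opposite order of groups.

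ACVR1B, the type I activin receptor and the most abundant receptor, had 24.3 and 24.3 FPKM in ECsXAV and 30.3 and 29.5 FPKM in CPC (log2 fold change 0.29, standard error 0.10, adjusted p = 0.229). BMPR2, the type II BMP receptor, overlapped at 10.5 and 9.55 FPKM in ECsXAV and 10.9 and 7.81 FPKM in CPC. The type I receptors TGFBR1, ACVR1 and BMPR1A and the type II receptor ACVR2A also overlapped, as did the co-receptor ENG. ACVR2B was at 5.12 and 5.89 FPKM in ECsXAV and 6.48 and 8.15 FPKM in CPC, and the co-receptor TGFBR3 at 1.65 and 1.70 FPKM and 2.74 and 1.91 FPKM, without overlap. The 95% interval, on the scale that understates changes of low genes, lay within a 2-fold change for 9 of the 10 tested receptors. That share was not computed over all genes. ACVRL1 and BMPR1B, with at most 0.174 FPKM, were not tested.

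BAMBI, a membrane pseudoreceptor that blocks TGF-beta family signaling, passed the test at an adjusted p under 0.05 but not the full criterion. It was the 1 of 6 tested genes listed as antagonists to do so, beside 2.89% of all genes. LEFTY2, a nodal inhibitor listed here with the ligands, also passed, in the opposite direction. BAMBI had 76.03 and 79.04 FPKM in ECsXAV and 145 and 136 FPKM in CPC. Both CPC libraries were higher, with a change of 0.85 on the log2 scale (standard error 0.11, adjusted p = 0.0379). BAMBI lies on chromosome 10 from 28966439 to 28971861 (GRCh37), and its promoter is the one printed above with 3 GGCGCC copies.

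Several secreted antagonists had values on the same side as BAMBI without passing. FST, follistatin, which binds activin, had 1.58 and 2.11 FPKM in ECsXAV and 5.05 and 3.44 FPKM in CPC. Its groups did not overlap (log2 fold change 0.87, standard error 0.21, adjusted p = 0.117, or 0.027 without short RNA genes). NOG, noggin, a BMP trap, had 4.998 and 6.026 FPKM in ECsXAV and 7.60 and 12.6 FPKM in CPC (log2 fold change 0.74, standard error 0.25, adjusted p = 0.220). CHRD, chordin, another BMP trap, had 1.47 and 2.12 FPKM in ECsXAV and 3.65 and 2.64 FPKM in CPC (log2 fold change 0.57, standard error 0.20, adjusted p = 0.236).

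FSTL1, a follistatin-like glycoprotein and the member with the highest mean over all 4 libraries, had the opposite order. In CPC the mean of BAMBI was slightly higher. It had 205 and 202 FPKM in ECsXAV and 132 and 144 FPKM in CPC (log2 fold change -0.56, standard error 0.12, adjusted p = 0.0904, or 0.0369 without short RNA genes). The summed fibroblast markers had the same order, as did the cardiomyocyte, smooth muscle, hepatic, epicardial and blood sums. The skeletal and paraxial sum had the opposite order, and the endothelial and pluripotency sums overlapped. The part of such cells in this value was not tested. FSTL3 overlapped at 7.005 to 10.81 FPKM. GREM1, gremlin, was not tested, with 0.632 and 0.944 FPKM in ECsXAV and 0.0698 and 0.0152 FPKM in CPC. From the whole-read steps of the table, those values stand for at least 52, 39, 5 and 1 reads in that order.

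The 2 extracellular processing genes had opposite orders, and BMP1 passed the test. BMP1, a metalloproteinase that processes procollagens and chordin and is no BMP ligand, had 8.89 and 9.23 FPKM in ECsXAV and 4.63 and 4.36 FPKM in CPC. Both ECsXAV libraries were higher (log2 fold change -0.87, standard error 0.11, adjusted p = 0.0358). The summed fibroblast markers and the other sums named for FSTL1 had the same order, and their part in this was not tested. LTBP1, which tethers latent TGF-beta to the matrix, had 78.2 and 74.5 FPKM in ECsXAV and 143 and 116 FPKM in CPC. Its log2 fold change was 0.75 (standard error 0.14, adjusted p = 0.0765, or 0.0156 without short RNA genes).

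**Figure D2:**
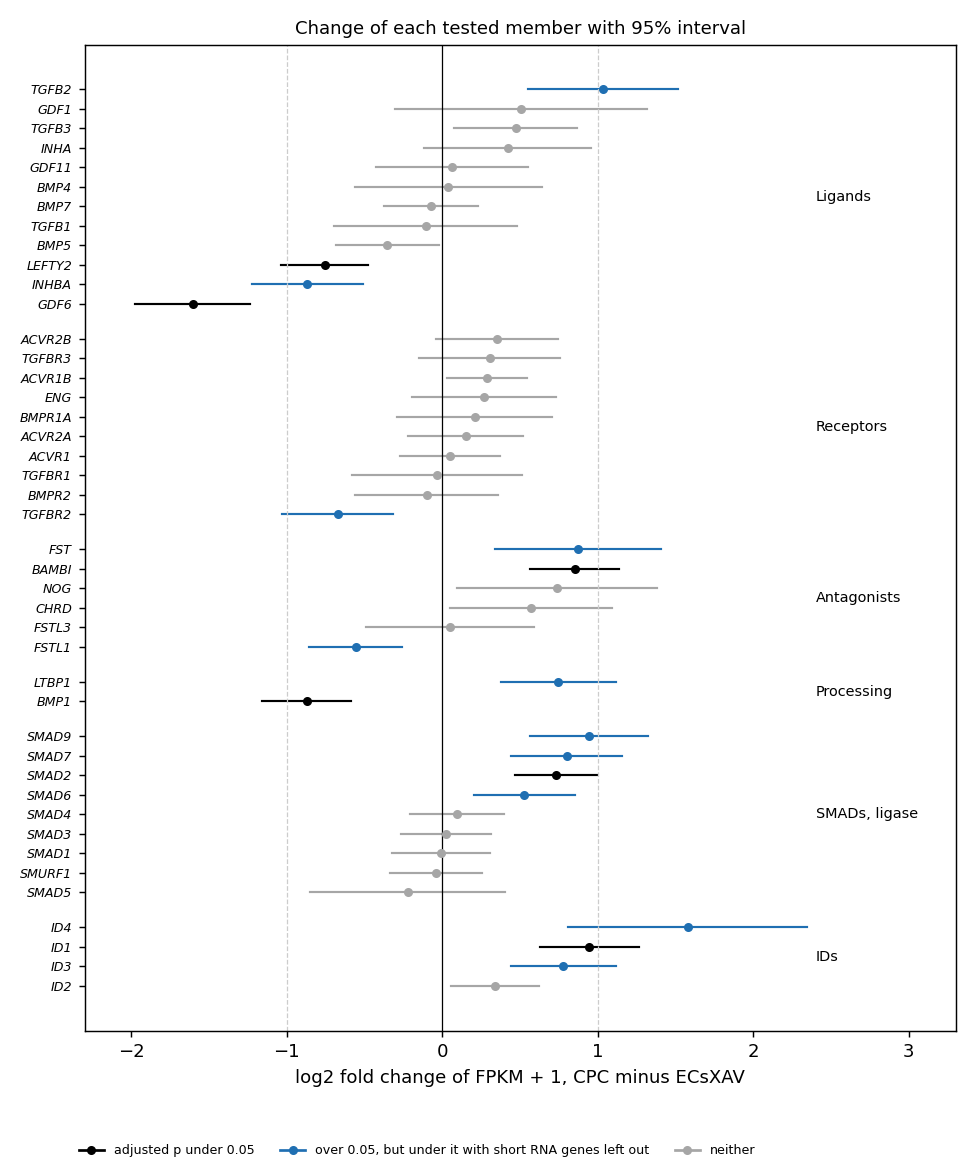
Log2 fold change of FPKM + 1 (CPC minus ECsXAV) for the 43 tested members by role, points with 95% intervals; black marks an adjusted p under 0.05, blue one over 0.05 that fell under it with short RNA genes left out, grey neither, and dashed lines a 2-fold change. GDF6 at -1.61 and ID4 at 1.58 lie farthest from 0, and most receptors lie near 0.

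All 9 SMAD and ligase genes were tested, and SMAD2, the activin and TGF-beta receptor SMAD, passed the test. It had 10.2 and 9.98 FPKM in ECsXAV and 17.3 and 17.6 FPKM in CPC, and the replicates lay close together in both groups. The log2 fold change was 0.73 (standard error 0.10, adjusted p = 0.0415). SMAD3, which acts beside SMAD2, overlapped at 12.3 and 12.1 FPKM in ECsXAV and 13.1 and 11.8 FPKM in CPC, with a log2 fold change of 0.02 and a 95% interval of -0.27 to 0.31.

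SMAD9, a BMP receptor SMAD, had 8.52 and 7.99 FPKM in ECsXAV and 18.9 and 14.9 FPKM in CPC (log2 fold change 0.94, standard error 0.15, adjusted p = 0.0514, or 0.00688 without short RNA genes). It also passed with a pseudocount of 0.1, a mean of at least 5 FPKM or median-of-ratios scaling, at adjusted p of 0.0427, 0.0450 and 0.0486. SMAD9 passed in no further setting. The other BMP receptor SMADs, SMAD1 at 7.38 to 8.57 FPKM and SMAD5 at 8.92 to 14.9 FPKM, overlapped between the groups. The common partner SMAD4 and the ubiquitin ligase SMURF1 overlapped as well, at 7.81 to 9.10 FPKM and 7.67 to 8.56 FPKM.

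The inhibitory SMADs, themselves known targets of the pathway, were higher in both CPC libraries. SMAD7 had 15.5 and 16.9 FPKM in ECsXAV and 26.2 and 31.9 FPKM in CPC (log2 fold change 0.80, standard error 0.14, adjusted p = 0.0618, or 0.0107 without short RNA genes). SMAD6, whose printed promoter holds GTCTAGAC, had 21.5 and 25.6 FPKM in ECsXAV and 35.0 and 33.6 FPKM in CPC (log2 fold change 0.53, standard error 0.13, adjusted p = 0.120, or 0.0476 without short RNA genes). SMAD6 and SMAD7 together made up 39.7% ± 2.88 of the summed FPKM of all SMADs in ECsXAV and 45.8% ± 4.33 in CPC (SD, n = 2).

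The 4 ID genes were each higher in both CPC libraries, beside 24.4% of all genes, and all 4 had an unadjusted p under 0.05, beside 7.86% in that direction. ID1 (chromosome 20, 30193086 to 30194318, GRCh37) had 22.6 and 26.4 FPKM in ECsXAV and 46.6 and 49.5 FPKM in CPC. Its change of 0.95 on the log2 scale (standard error 0.12, adjusted p = 0.0382) was the one of the 4 to pass the test over all genes. ID3 (chromosome 1, 23884417 to 23885992, GRCh37) had 38.7 and 45.0 FPKM in ECsXAV and 76.1 and 68.8 FPKM in CPC (log2 fold change 0.78, standard error 0.13, adjusted p = 0.0584, or 0.00983 without short RNA genes).

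ID4, the lowest of the family, had 3.32 and 3.68 FPKM in ECsXAV and 17.1 and 8.97 FPKM in CPC. The CPC replicates were far apart, and the log2 fold change of 1.58 had a standard error of 0.30 (adjusted p = 0.0745, or 0.00671 without short RNA genes). ID2, the most abundant, had 75.9 and 80.8 FPKM in ECsXAV and 97.1 and 102 FPKM in CPC (log2 fold change 0.34, standard error 0.11, adjusted p = 0.200). The 4 genes summed to 141 and 156 FPKM in ECsXAV and 237 and 229 FPKM in CPC. ID2 made up 52.9% ± 1.52 of that sum in ECsXAV and 42.7% ± 2.43 in CPC (SD, n = 2).

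**Figure D3:**
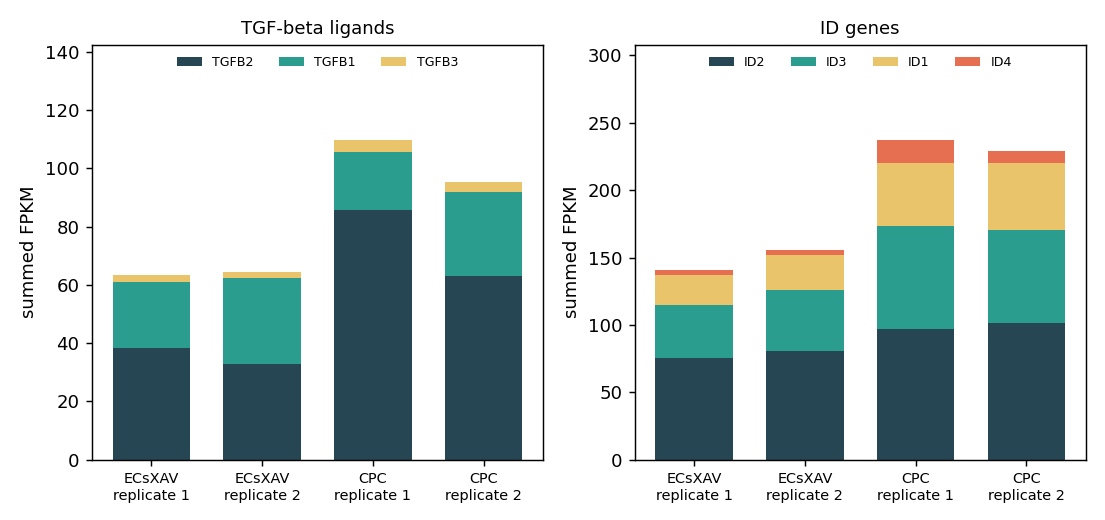
Summed FPKM of the TGF-beta ligand genes (left) and the ID genes (right) in each library, stacked by gene on axes that start at 0. The TGFB2 segment is larger in both CPC libraries at 85.8 and 63.0 FPKM, and the ID sums of 237 and 229 FPKM in CPC exceed 141 and 156 FPKM in ECsXAV.

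Other genes of the pathway, not among the members, included larger changes. Of 71 listed genes in the table, 49 were tested and 7 passed the full criterion of an adjusted p under 0.05 and a change over 2-fold, 3 higher in CPC and 4 higher in ECsXAV, beside 0.71% and 1.44% of all genes. BMP2, a BMP ligand of the early heart, had 19.3 and 19.5 FPKM in ECsXAV and 121 and 100.3 FPKM in CPC. Its log2 fold change was 2.45 (standard error 0.13, adjusted p = 0.00605), and its adjusted p stayed between 0.0219 and 0.0320 with any 1 library left out. BMPER, which binds BMPs outside the cell, and FOXH1, the DNA-binding partner of SMAD2 in nodal signaling, were also higher in CPC, with log2 fold changes of 1.70 and 1.12. BMPER had 4.51 and 4.44 FPKM in ECsXAV and 19.6 and 14.4 FPKM in CPC. FOXH1 had 6.60 and 8.03 FPKM in ECsXAV and 16.5 and 17.5 FPKM in CPC, and no library of 1 group overlapped the other for any of these genes.

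The 4 genes higher in ECsXAV were 2 known TGF-beta targets, the stress-induced ligand GDF15 and the proprotein convertase PCSK6. TGFBI, a matrix protein, had 13.75 and 20.02 FPKM in ECsXAV and 0.500 and 0.500 FPKM in CPC (log2 fold change -3.55, standard error 0.20, adjusted p = 0.00676). CTGF, a matricellular protein, had 23.2 and 29.9 FPKM against 6.83 and 7.09 FPKM. Both CPC libraries were lower for each. GDF15 had 6.56 and 11.9 FPKM in ECsXAV and 0.469 and 0.794 FPKM in CPC, and PCSK6, which cleaves proproteins of this family, had 3.39 and 3.89 FPKM and 1.05 and 0.989 FPKM. TGFBI and CTGF had the opposite order to the ID genes. They had the same order as the summed fibroblast and smooth muscle markers and the other sums named for FSTL1. The part of such cells in this was not tested. The other listed targets were mixed, and none passed the criterion. ATOH8 and MSX1 were higher in both ECsXAV libraries, MSX2 and TGFB1I1 were higher in both CPC libraries, and PMEPA1 overlapped. Of the other pathway genes, 4 and 3 passed the criterion without ECsXAV replicate 1 and ECsXAV replicate 2, and 1 passed without CPC replicate 1 or CPC replicate 2. Without either CPC library TGFBI had adjusted p of 0.110 and 0.0917 and CTGF of 0.128 and 0.115. Unadjusted p-values were under 0.05 for 12 of the 49, beside 18.2% of all genes, the other 5 being THBS1, AMHR2, LTBP3, FBN1 and TDGF1. THBS1, an activator of latent TGF-beta, had 11.3 and 12.5 FPKM in ECsXAV and 22.4 and 19.6 FPKM in CPC (log2 fold change 0.77, standard error 0.12, adjusted p = 0.0549). FBN1, a microfibril protein that holds latent TGF-beta complexes, had 1.88 and 2.42 FPKM in ECsXAV and 0.770 and 0.350 FPKM in CPC (log2 fold change -1.02, standard error 0.21, adjusted p = 0.0849). Of the 22 intracellular regulators tested, FOXH1 was the 1 to pass the full criterion, beside 2.15% of all genes. A 95% interval within a 2-fold change was found for 19, a share that was not computed over all genes.

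**Figure D4:**
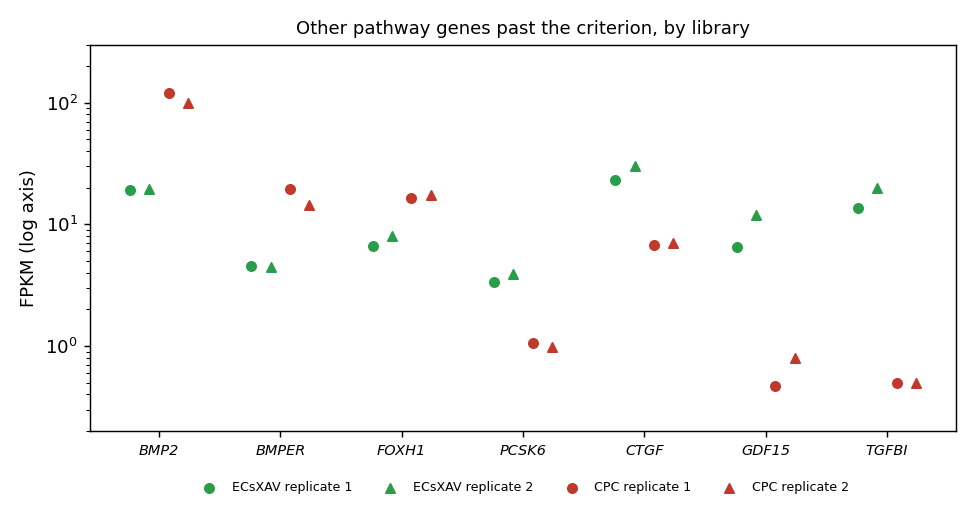
FPKM (log axis) in each library of the 7 other pathway genes with an adjusted p under 0.05 and a change over 2-fold; green is ECsXAV, red is CPC, circles are replicate 1 and triangles replicate 2. BMP2, BMPER and FOXH1 lie higher in both CPC libraries, and PCSK6, CTGF, GDF15 and TGFBI higher in both ECsXAV libraries.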

How the data were processed

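Poly-A RNA of 4 libraries was analysed. The authors deposited FPKM per gene and per isoform, computed with Cufflinks on hg19. The submitters' processing notes name TopHat 1.3.3 and the study's methods name Gsnap for its counts, and it is unclear which alignment the FPKM rest on. For the FPKM, the scaling between libraries and the handling of multiply aligned reads were not given in the sources used here. Relative depth came from whole-read steps of low FPKM. With limma 3.58.1 in R 4.3.3 (lmFit, eBayes with an intensity trend), log2(FPKM + 1) was fitted for the 12398 genes averaging 1 FPKM or more. The criterion was an adjusted p under 0.05 and a change over 2-fold. The study tested counts, which were not used here. For symbols with several loci the highest was used. GENCODE release 44, lifted to GRCh37, gave the gene coordinates. The study describes strand-specific counting for its counts, not for the FPKM, so genes overlapping on the other strand are uncertain. Members that overlap a protein-coding gene this way are BMP6, BMP8B, GDF11, INHA, TGFB1, TGFB3, ACVR2A, CHRD and SMURF1. GDF1, which shares its strand with CERS1, is uncertain as well. Members and lists were chosen with earlier results of these data known. Values are given for members at an unadjusted p under 0.05 or over 2-fold and the 2 highest of each role. For other pathway genes, those past the criterion or at an unadjusted p under 0.05 and the listed targets are named, and markers are summed. Of the listed pathway genes, 2 are not reported here. The fit was also run on simulated data as a self-test, whose outcome is not given here. Alternatives were another pseudocount, filters, scalings, no trend, the replicate block, short RNA genes left out, summed loci, the isoform table and each library left out. Figures were drawn with matplotlib 3.10.9.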

Additional observations from a re-analysis of the deposited data

How the results depend on the processing

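Depth and 2 libraries per group limited these results, and leaving out 1 library assumes that the lone one varied like the others. No alternative other than leaving out a library turned the direction of a member. The filters, no trend, the replicate block and leaving out short RNA genes could not turn it, since they keep a gene's group means. Without the low FPKM filter, 20 genes passed the full criterion and 20 an adjusted p under 0.05, in place of 266 and 358, with 0 members by either rule and 1 other pathway gene. GDF6 then had an adjusted p of 0.0570, and the cause was not tested. At a mean of at least 5 FPKM, which leaves out GDF6, 152 and 231 genes passed, with 0 members past the full criterion. A pseudocount of 0.1 gave 3 members past it (GDF6, INHBA and SMAD9). With short RNA genes left out, 968 genes and 17 members had an adjusted p under 0.05, and 3 members (GDF6, ID4 and TGFB2) passed the full criterion.

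The groups share replicate numbers, which no label ties to a shared culture. Differences between replicates 1 and 2 had a rank correlation between the groups of 0.356 across 12398 genes (Pearson's r 0.035). Under the replicate block, 176 genes met the full criterion and 195 an adjusted p under 0.05. Of the members, 2 (GDF6 and TGFB2) and 3 (with ID1) did.

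Leaving out each library in turn gave 50 to 118 genes past either rule, 0 to 1 members and 1 to 4 other pathway genes. Of the 43 members, 30 kept their direction. The range of the log2 fold change crossed 0 for ACVR1 (-0.0383 to 0.137), BMP4 (-0.252 to 0.33), BMP7 (-0.16 to 0.0135), BMPR1A (-0.0332 to 0.45), BMPR2 (-0.32 to 0.117), FSTL3 (-0.233 to 0.328), GDF11 (-0.184 to 0.31), SMAD1 (-0.105 to 0.087), SMAD3 (-0.0514 to 0.0974), SMAD5 (-0.564 to 0.12), SMURF1 (-0.0967 to 0.0193), TGFB1 (-0.367 to 0.157) and TGFBR1 (-0.301 to 0.237).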

Other observations

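Among transcripts of the members, SMAD3 differed in composition while its total did not. The transcript NM_005902 held 68.3% and 76.4% of SMAD3 FPKM in the ECsXAV replicates and 49.2% and 31.1% in the CPC replicates. NM_001145103 held 29.2% and 22.8% in ECsXAV and 48.7% and 68.8% in CPC. The groups did not overlap for either transcript, and no test was made. FST had a smaller difference, with NM_006350 at 10.95% and 13.76% in ECsXAV and 21.4% and 17.5% in CPC. Of 21 tested members with several transcripts, the share of the most abundant transcript did not overlap between the groups for 11, and for 5 of these the difference exceeded the larger gap between replicates. The same count was not made over all genes, so these numbers are no result about the members. For 6 of the 21, replicates of a group differed by over 20 percentage points, as for TGFBR3, so such shares are estimates of limited precision. These transcripts were named after their values were seen.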
